A study of Mus musculus with 8 samples.

Results

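The 35 genes described here are a set of enteric neuron genes, listed by symbol. They comprise 13 genes for transmitters, their enzymes and transporters, or neuropeptides, 2 secretory granule genes, 7 cytoskeletal genes, 2 growth cone membrane genes, 5 synaptic genes, 3 genes for transcription factors and RNA-binding proteins, 2 receptor genes and the ubiquitin hydrolase gene Uchl1. All 35 were among the 18193 mouse genes measured. Each gene is represented by the probe set that names it alone and has the highest mean over the 8 arrays; 70 probe sets named a member alone, and 18 members had more than 1. RNA of BALB/c mouse pups, 6 to 9 days old, was measured on oligonucleotide arrays, all of it from small intestine. The groups were isolated ICC-DMP cells (3 arrays), isolated ICC-MY cells (3 arrays) and whole tunica muscularis, that is the muscle coat, as tissue (2 arrays). ICC are interstitial cells of Cajal; in this field DMP denotes the deep muscular plexus and MY the myenteric plexus, although the labels print the abbreviations alone. No genotype, drug treatment or sex is given for any group, nor the method of cell isolation or the number of animals per sample.

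Enteric neurons lie in ganglia between and beneath the muscle layers. Excitatory motor neurons release acetylcholine and tachykinins, and inhibitory motor neurons release nitric oxide and vasoactive intestinal peptide. ICC of the deep muscular plexus are contacted closely by the varicosities of these neurons and take part in neuromuscular transmission, and ICC of the myenteric plexus surround the ganglia and generate slow waves. Muscle coat tissue holds neurons, glia, muscle and ICC together, so the comparison with tissue asks which neuron transcripts the isolated cells lack and which they carry. A lower value in isolated cells than in tissue can mean fewer cells of a type or less RNA of that gene per cell; these cannot be told apart here.

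Values are deposited log2 expression values, so a difference of 1 is a 2-fold change; differences were tested with limma and called at a Benjamini-Hochberg adjusted p under 0.05 over all 18193 genes. Levels of different probe sets are not amounts that can be ranked, so a gene's percentile among all genes of an array, given as a rough place, also depends on its probe set. The array medians ran from 4.18 to 4.31. Values were less spread on ICC-MY replicate 1 and tissue replicate 1 than on the other 6 arrays (SD over probe sets 1.98 and 2.06, against 2.22 to 2.31). Tissue replicate 2 read higher than tissue replicate 1 for 26 of the 35 neuron genes, with a median difference of 0.38 (0.10 over all genes). Of 7 ICC markers, 6 were called higher in the mean of the ICC classes than in tissue (3.69% of all genes). In ICC-MY 6 were called higher (4.05% of all genes), but in ICC-DMP only 4 were (3.72% of all genes). In ICC-DMP 2 of the 7 read below tissue, the lowest at a log2 difference of -0.79. These markers were listed with earlier results of these data known, so their counts do not test what the isolated cells are. Kit read 10.84 to 11.34 in ICC-DMP and 10.81 to 12.42 in ICC-MY, against 7.20 and 8.43 in tissue. The tissue also carried some epithelial transcripts, unequally: Fabp1, a fatty acid binding protein of enterocytes, read 2.20 to 2.39 in ICC-DMP and 2.04 to 2.23 in ICC-MY, against 7.0 and 11.29 in tissue. Fabp1 is 1 of 9 enteroendocrine and epithelial markers listed. In the ICC mean 2 of the 9 were called lower (9.32% of all genes) and 7 were not called, with a median difference of -0.26.

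Nearly all of the neuron genes were lower in the isolated ICC than in the muscle coat. In the mean of the 2 ICC classes, 30 of 35 were called lower and 0 higher by limma (0 higher at an unadjusted p under 0.05); over all genes, 9.32% were called lower and 3.69% higher. The median log2 difference over the 35 genes was -3.58, beside -0.02 over all genes. With all probe sets of a gene averaged it was -2.17 (-1.99 in ICC-MY). Of the 16 genes called lower that had several probe sets, 10 had another that was called lower, and 0 had one called higher; no other probe set of Tac1, Prph, Dcx, Ret, Snap91 or Elavl3 was called. In ICC-DMP 29 were lower (7.32% of all genes), 0 were called higher (3.72% of all genes; 1 at an unadjusted p under 0.05), and the median was -3.42. In ICC-MY 29 were lower (9.78% of all genes), 0 were higher (4.05% of all genes; 0 at an unadjusted p under 0.05), and the median was -3.75. Both class comparisons share the 2 tissue arrays. The 6 ICC arrays all lay below both tissue arrays for 28 of the 35 genes, against 13.7% of all genes, and above both for 0, against 6.23% of all genes. Markers of other cells of the muscle coat were called lower in the ICC mean too (9.32% of all genes). These were 5 of 6 smooth muscle, 3 of 7 glial and Schwann cell, 5 of 6 macrophage and 5 of 5 mesothelial markers. Of the smooth muscle markers, 3 were called lower in ICC-DMP (7.32% of all genes, median difference -1.05) and 5 in ICC-MY (9.78% of all genes, median -4). The mesothelial log2 summed level was 6.06 to 6.19 in ICC-DMP and 5.82 to 5.94 in ICC-MY, against 11.70 to 12.26 in tissue. The part of these other cells in the neuron gene differences was not tested.

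The same contrast can be read within each array. The median percentile of the 35 genes was between 28.3 and 35.7 on the 6 ICC arrays, against 82.9 and 80.6 on the tissue arrays. In tissue, 28 of the genes stood at or above percentile 50 on both arrays. Only 7 did so on all ICC-DMP arrays (Nos1, Penk, Dbh, Chgb, Snap91, Hand2 and Elavl3) and 5 on all ICC-MY arrays (Nos1, Syn2, Hand2, Elavl3 and Ret). The plot of every gene on every array shows the separation role by role.

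**Figure D1:**
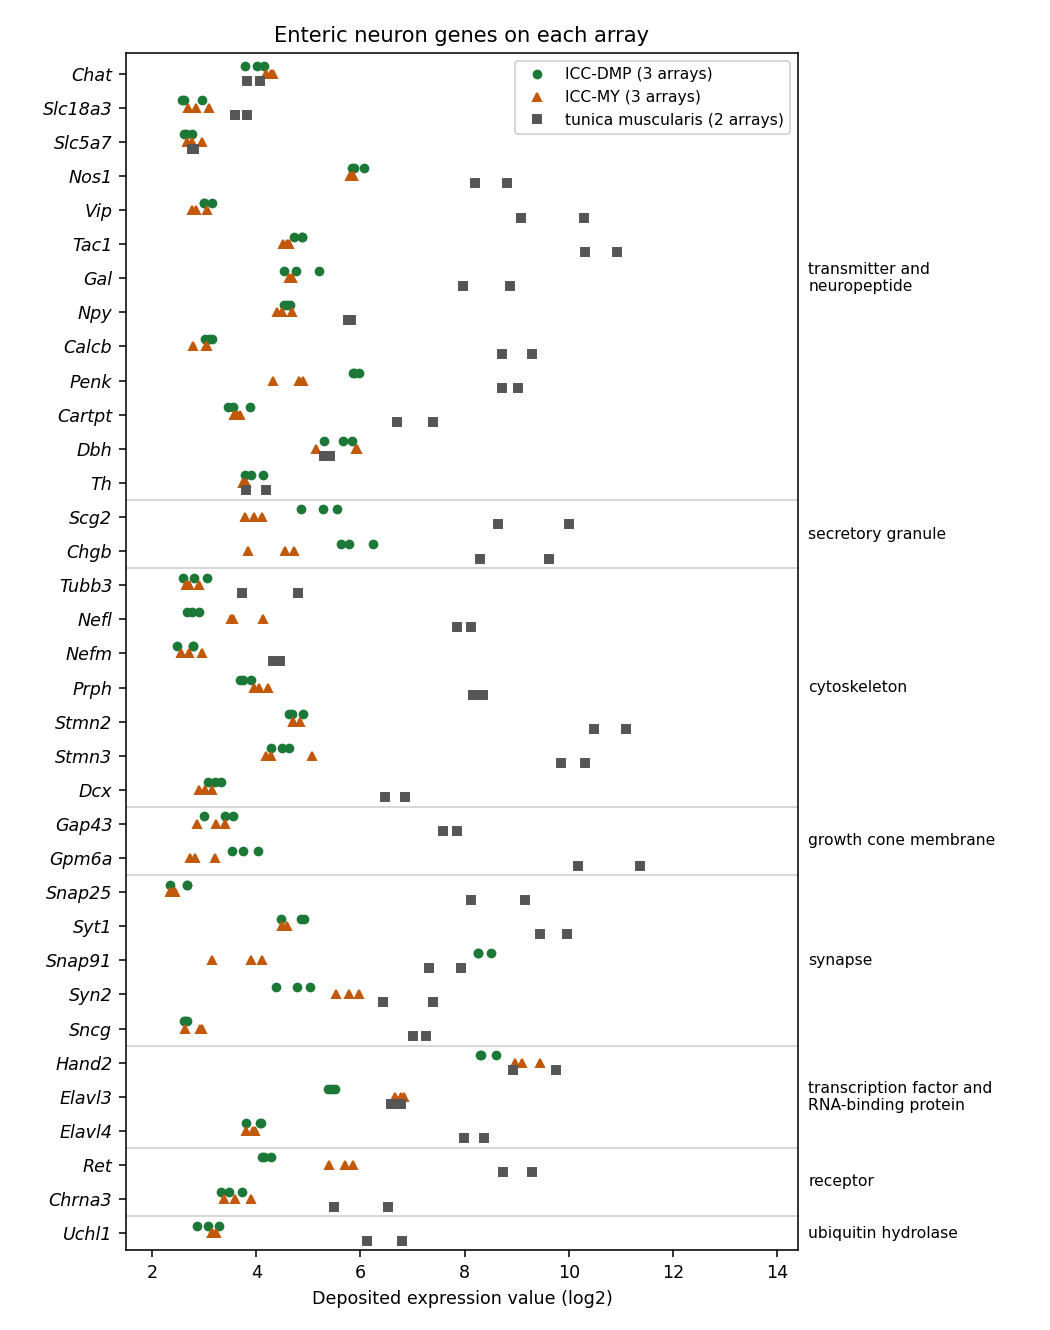
Deposited log2 expression value (horizontal axis) of each of the 35 neuron genes on each of the 8 arrays, grouped by role; every point is 1 array. For 28 genes all ICC-DMP and ICC-MY points lie left of both tunica muscularis points, while Hand2 stays above 8 on every array.

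Among the transmitter and neuropeptide genes, 9 of 13 were lower in the ICC mean. Vip, encoding the main inhibitory neuropeptide, read 2.99, 2.99 and 3.15 in ICC-DMP and 2.84, 2.77 and 3.05 in ICC-MY, against 9.09 and 10.29 in tissue. The groups did not overlap, and the ICC mean read 106-fold lower (log2 difference -6.72 ± 0.28 SE, adjusted p = 2.77e-06). The ICC values lay at percentiles 7.9 to 17.1, with no detection call to separate signal from background there. The fold of Vip therefore does not measure how little transcript the cells held. The same applies to genes below with ICC values about as low, such as Snap25, Calcb, Gpm6a, Gap43, Uchl1, Sncg and Dcx. Tac1, the precursor of substance P and neurokinin A, read 4.73, 4.87 and 4.87 in ICC-DMP and 4.51, 4.62 and 4.59 in ICC-MY, against 10.31 and 10.92 in tissue. It was 60.5-fold lower (log2 difference -5.92 ± 0.17, adjusted p = 9.22e-07). Calcb, which encodes the beta form of calcitonin gene-related peptide, read 3.02 to 3.15 in ICC-DMP and 2.78 to 3.06 in ICC-MY, against 8.72 and 9.30 in tissue. Its difference was -5.99 ± 0.18 (adjusted p = 9.22e-07), and every ICC array placed it at percentile 17.3 or lower.

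The remaining peptide genes fell by smaller amounts. Galanin (Gal) read 4.54 to 5.21 in ICC-DMP and 4.63 to 4.69 in ICC-MY, against 7.96 and 8.87 in tissue, a log2 difference of -3.66 ± 0.26 (adjusted p = 4.54e-05). Penk, the enkephalin precursor, read 5.86, 5.98 and 5.87 in ICC-DMP and 4.32, 4.83 and 4.89 in ICC-MY, against 8.71 and 9.03 in tissue, so each class lay below tissue and the classes did not overlap each other. Cartpt, the precursor of cocaine- and amphetamine-regulated transcript peptides, differed by -3.42 ± 0.20 (adjusted p = 1.79e-05), and the difference was -3.42 in each class taken alone. Neuropeptide Y (Npy) showed the smallest fall of the 7 neuropeptide genes, -1.23 ± 0.13 (adjusted p = 0.000465); it read 4.53 to 4.64 in ICC-DMP and 4.39 to 4.68 in ICC-MY, against 5.82 and 5.76 in tissue.

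Nos1, the neuronal nitric oxide synthase of inhibitory motor neurons, was lower in ICC but not dim on the probe set used. It read 5.83, 5.88 and 6.06 in ICC-DMP and 5.86, 5.80 and 5.85 in ICC-MY, against 8.82 and 8.20 in tissue (log2 difference -2.63 ± 0.18, adjusted p = 3.53e-05). The ICC arrays placed it at percentiles 56.4 to 60.0, against 91.6 and 81.2 in tissue. Its other probe sets read only 2.77 to 4.40 in ICC. The brightest of those was called lower by limma in the ICC mean (-0.89, adjusted p = 0.00586), and the rest were not called. The cholinergic genes gave little to compare. Slc18a3, the vesicular acetylcholine transporter, read 2.57 to 2.95 in ICC-DMP and 2.69 to 3.10 in ICC-MY, against 3.83 and 3.59 in tissue, and was called lower (-0.91 ± 0.17, adjusted p = 0.00934). That call was lost without tissue replicate 1 (-0.79, adjusted p = 0.073). Choline acetyltransferase (Chat) and the choline transporter Slc5a7 were not called: Chat averaged 3.98 ± 0.18 in ICC-DMP and 4.26 ± 0.08 in ICC-MY (SD, n = 3 each), against 3.95 ± 0.18 in tissue (SD, n = 2). Slc5a7 read between 2.62 and 2.95 on all 8 arrays. Both were below percentile 50 in tissue as well as in ICC, so these probe sets did not separate neuron-containing tissue from the isolated cells.

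The catecholamine genes were not called either. Tyrosine hydroxylase (Th), the first enzyme of catecholamine synthesis, read 3.79 to 4.13 in ICC-DMP and 3.74 to 3.81 in ICC-MY, against 4.19 and 3.81 in tissue, with percentiles of 28.3 to 35.7. Dopamine beta-hydroxylase (Dbh), which makes noradrenaline, read 5.30, 5.67 and 5.83 in ICC-DMP and 5.14, 5.93 and 5.91 in ICC-MY, against 5.30 and 5.41 in tissue. The ICC mean minus tissue was 0.27 with a 95% confidence interval of -0.28 to 0.83 (adjusted p = 0.619). The other 2 Dbh probe sets read lower in ICC than in tissue (log2 differences -0.48 and -0.40, adjusted p = 0.343 and 0.153), so the sign of its difference depends on the probe set. The identifier of the one used ends in _x_at, a suffix that marks possible cross-hybridization.

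Both secretory granule genes were lower than tissue in each class. Scg2 and Chgb encode secretogranin II and chromogranin B, acidic proteins of the dense-core granules that store peptides. Scg2 read 5.55, 5.28 and 4.86 in ICC-DMP and 3.78, 4.12 and 3.96 in ICC-MY, against 8.64 and 10.00 in tissue. Relative to tissue it was 17.0-fold lower in ICC-DMP (adjusted p = 0.000236) and 41.2-fold lower in ICC-MY (adjusted p = 4.47e-05). Chgb read 5.63, 5.78 and 6.24 in ICC-DMP and 3.85, 4.72 and 4.56 in ICC-MY, against 8.29 and 9.62 in tissue. It was 8.4-fold lower in ICC-DMP (adjusted p = 0.00193) and 23.9-fold lower in ICC-MY (adjusted p = 0.000189).

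Promoter sequence was matched for 27 of the 35 genes in RefSeq's GRCm38.p6 annotation; Penk, Calcb, Gap43, Nefm, Nefl, Ret, Stmn2 and Snap25 are named only. The cyclic AMP response element TGACGTCA, searched on both strands in the 250 bases before each start, lay in 4 of the 27 (Cartpt, Th, Scg2 and Chgb) and in 1.8% of the 27025 genes with a window. Its core TGACG, which every full site contains, lay in 12 of 27 and in 19.8% of all genes. The TATA box, searched as TATAAA, lay in 6 of 27 (14.3% of all genes) and the E-box CANNTG in 20 of 27 (69.3%). GGACAG, the right end of the RE1 element bound by the neuronal repressor REST, lay in 5 of 27 (21.0%). A match is a description of the letters only. The 250 bases are shown for both granule genes and for the 3 peptide genes called lower whose windows hold the element or its core. The windows of Gal and Npy, which were also called lower, hold neither. Those shown are read 5′ to 3′ toward the start, with the response element, its core, the RE1 end and the TATA box of either strand in capitals. The full element ends 61 bases before the Scg2 start, 65 before the Chgb start and 105 before the Cartpt start; the Vip and Tac1 windows hold the core only, beside TATA boxes in Vip. These windows lie at chr1:79440027-79440276 on the minus strand, chr2:132781392-132781641 on the plus strand, chr13:99900684-99900933 on the minus strand, chr10:5638968-5639217 on the plus strand and chr6:7554811-7555060 on the plus strand.
Scg2: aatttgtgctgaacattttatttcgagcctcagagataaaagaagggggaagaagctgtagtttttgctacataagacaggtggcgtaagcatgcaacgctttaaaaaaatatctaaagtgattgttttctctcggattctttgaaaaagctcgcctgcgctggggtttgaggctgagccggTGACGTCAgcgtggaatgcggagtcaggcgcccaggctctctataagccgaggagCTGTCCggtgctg
Chgb: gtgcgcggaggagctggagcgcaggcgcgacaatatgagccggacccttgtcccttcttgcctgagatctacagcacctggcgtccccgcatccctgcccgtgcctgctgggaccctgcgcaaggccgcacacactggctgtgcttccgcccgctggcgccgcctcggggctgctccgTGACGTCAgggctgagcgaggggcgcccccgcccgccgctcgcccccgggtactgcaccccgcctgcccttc
Cartpt: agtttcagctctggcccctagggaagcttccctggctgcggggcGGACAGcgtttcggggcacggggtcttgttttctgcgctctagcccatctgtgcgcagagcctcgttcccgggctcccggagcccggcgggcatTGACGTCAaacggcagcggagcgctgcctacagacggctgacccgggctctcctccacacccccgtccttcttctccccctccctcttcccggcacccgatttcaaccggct
Vip: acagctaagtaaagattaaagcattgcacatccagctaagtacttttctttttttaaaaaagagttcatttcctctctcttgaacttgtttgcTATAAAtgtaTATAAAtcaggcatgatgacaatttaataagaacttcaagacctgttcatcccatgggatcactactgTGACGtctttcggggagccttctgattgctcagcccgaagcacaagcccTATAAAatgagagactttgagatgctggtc
Tac1: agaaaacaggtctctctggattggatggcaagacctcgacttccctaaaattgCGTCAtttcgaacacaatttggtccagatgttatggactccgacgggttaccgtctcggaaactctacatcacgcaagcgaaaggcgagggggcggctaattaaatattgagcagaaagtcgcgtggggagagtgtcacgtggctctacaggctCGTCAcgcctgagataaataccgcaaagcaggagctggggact

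All 7 cytoskeletal genes were lower in the ICC mean. Stmn2, a microtubule-destabilizing stathmin of growing axons, read 4.63, 4.69 and 4.90 in ICC-DMP and 4.84, 4.70 and 4.71 in ICC-MY, against 10.48 and 11.09 in tissue, where it stood at percentiles 98.2 and 97.4. The ICC mean was 65.9-fold lower (log2 difference -6.04 ± 0.18, adjusted p = 9.22e-07), and its relative Stmn3 was 48.1-fold lower (-5.59 ± 0.26, adjusted p = 4.82e-06). Peripherin (Prph), the intermediate filament of peripheral neurons, read 3.68 to 3.90 in ICC-DMP and 3.95 to 4.23 in ICC-MY, against 8.16 and 8.35 in tissue (-4.33 ± 0.14, adjusted p = 1.27e-06). The neurofilament light chain gene Nefl differed by -4.73 ± 0.19 (adjusted p = 2.67e-06) and the medium chain gene Nefm by -1.68 ± 0.16 (adjusted p = 0.000259), although Nefm stood only at percentiles 34.9 and 37.6 in tissue. Doublecortin (Dcx), a microtubule protein of immature neurons, differed by -3.56 ± 0.15 (adjusted p = 3.65e-06). Tubb3, the neuronal beta-tubulin, was low everywhere and uneven in tissue: it read 2.59 to 3.05 in ICC-DMP and 2.66 to 2.91 in ICC-MY, against 3.73 and 4.81 in tissue (-1.48 ± 0.27, adjusted p = 0.00798). In ICC-DMP alone the Tubb3 call was lost without tissue replicate 2 (-0.91, adjusted p = 0.0515), ICC-DMP replicate 1 (0.0651) or ICC-DMP replicate 3 (0.0641).

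Both growth cone membrane genes were lower. Gpm6a, a membrane glycoprotein of neurite outgrowth, read 3.75, 4.04 and 3.53 in ICC-DMP and 2.82, 3.20 and 2.72 in ICC-MY, against 10.18 and 11.37 in tissue. Its ICC mean read 172-fold lower (-7.43 ± 0.30, adjusted p = 2.67e-06), with ICC-MY at percentiles 6.9 to 18.5. Mesothelial markers fell by a median of -5.78 in the ICC mean, and the part of cells other than neurons in the Gpm6a difference was not tested. Gap43, a growth-associated protein of axon terminals, read 2.99 to 3.55 in ICC-DMP and 2.87 to 3.40 in ICC-MY, against 7.59 and 7.86 in tissue (-4.49 ± 0.20, adjusted p = 4.25e-06). Uchl1, a ubiquitin hydrolase whose protein is widely used to stain enteric ganglia, was 10.1-fold lower (-3.34 ± 0.20, adjusted p = 1.85e-05).

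Of the 5 synaptic genes, 3 were lower in both classes by similar amounts. Snap25, a plasma membrane SNARE protein, read 2.67, 2.68 and 2.35 in ICC-DMP and 2.34, 2.45 and 2.38 in ICC-MY, against 8.13 and 9.16 in tissue; every ICC array placed it at percentile 6.3 or lower. Its log2 difference was -6.17 ± 0.25 (adjusted p = 2.67e-06). Syt1, the calcium sensor of synaptic vesicles, differed by -5.06 ± 0.18 (adjusted p = 2.05e-06), and gamma-synuclein (Sncg) by -4.39 ± 0.14 (adjusted p = 1.27e-06). Syn2, a vesicle-tethering synapsin, read 5.03, 4.38 and 4.79 in ICC-DMP and 5.98, 5.53 and 5.79 in ICC-MY, against 7.40 and 6.43 in tissue. It was lower in ICC-DMP (-2.18 ± 0.31, adjusted p = 0.00257) and, close to the threshold, in ICC-MY (-1.14 ± 0.31, adjusted p = 0.0452). Without tissue replicate 1 the ICC-MY difference was -0.66 (adjusted p = 0.223), and leaving out any ICC-DMP array, ICC-MY replicate 2 or ICC-MY replicate 3 also ended that call (adjusted p 0.0577 to 0.123). Other Syn2 probe sets were called lower in ICC-MY by limma, at -2.33 (adjusted p = 0.00046) and -1.21 (0.0137). The first of these was also called lower in ICC-DMP than in ICC-MY (-1.26, adjusted p = 0.00894). Syn2 probe sets at 3.17 or lower on every array were not called.

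Snap91 departed from the other synaptic genes. It encodes AP180, a clathrin assembly protein that retrieves synaptic vesicle membrane. Snap91 read 8.26, 8.51 and 8.26 in ICC-DMP and 3.15, 4.12 and 3.89 in ICC-MY, against 7.32 and 7.94 in tissue. All 3 ICC-DMP arrays lay above both tissue arrays, which lay above all 3 ICC-MY arrays. The ICC-DMP difference from tissue was 0.72 with a 95% interval of 0.02 to 1.41 and was not called (adjusted p = 0.219), while ICC-MY was 15-fold lower (-3.91 ± 0.30, adjusted p = 7.92e-05). The call of its ICC mean (-1.60, adjusted p = 0.00592) therefore averages unlike classes, and was lost without tissue replicate 2 (-1.28, adjusted p = 0.0585). A second Snap91 probe set stayed between 3.11 and 3.54 on all 8 arrays and showed no such pattern, so the level in ICC-DMP rests on 1 probe set.

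The transcription factor and RNA-binding genes split. Elavl4 (HuD) of the neuronal Hu family behaved as the axonal genes did: it averaged 3.99 ± 0.16 in ICC-DMP and 3.90 ± 0.08 in ICC-MY, against 8.18 ± 0.28 in tissue (difference -4.23 ± 0.16 SE, adjusted p = 2.36e-06). Elavl3 (HuC) of the same family read 5.51, 5.38 and 5.45 in ICC-DMP and 6.77, 6.84 and 6.67 in ICC-MY, against 6.59 and 6.77 in tissue. It was lower than tissue in ICC-DMP (-1.24 ± 0.14, adjusted p = 0.000808), and in ICC-MY the arrays overlapped those of tissue (0.08, 95% interval -0.24 to 0.41, adjusted p = 0.83). Its ICC mean difference of -0.58 (adjusted p = 0.0193) again averages unlike classes. That call was lost without ICC-DMP replicate 2 (-0.56, adjusted p = 0.0548) or tissue replicate 2 (-0.49, 0.124), and with quantile normalization (-0.40, 0.0875), median centring (-0.35, 0.132), dim genes removed (0.0978) or array weights (0.0609). Hand2, a basic helix-loop-helix factor needed for enteric neuron differentiation, read 8.31, 8.30 and 8.60 in ICC-DMP and 8.96, 9.11 and 9.45 in ICC-MY, against 8.93 and 9.76 in tissue. It stood at percentile 84.1 or higher on all 8 arrays. Its ICC mean difference of -0.56 ± 0.24 was not called (adjusted p = 0.197).

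With the replicate number as a block, Hand2 was called lower than tissue in the ICC mean (-0.68, adjusted p = 0.0444) and in ICC-DMP (-1.06, adjusted p = 0.0102, against -0.94 and 0.0591 without the block). Leaving out tissue replicate 1 had the same outcome for ICC-DMP (-1.35, adjusted p = 0.0136) and for the ICC mean (-0.97, adjusted p = 0.0375). Quantile normalization (-1.03, adjusted p = 0.00744), array weights (-0.98, 0.0444) and leaving out both narrow-range arrays (-1.35, 0.00464) also called Hand2 lower in ICC-DMP. The other 2 Hand2 probe sets read 2.83 to 3.97 on all arrays and were called in no comparison.

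The 250 bases before the starts of Snap91 and Elavl3 are shown because each of these genes was at or above its tissue level in 1 ICC class and called lower in the other. Neither window holds the core of the response element. The Snap91 window holds the RE1 end 213 to 208 bases before the start, and the Elavl3 window a TATA box 33 to 28 bases before it, both in capitals. They lie at chr9:86880709-86880958 on the minus strand and chr9:22052024-22052273 on the minus strand in GRCm38.p6.
Snap91: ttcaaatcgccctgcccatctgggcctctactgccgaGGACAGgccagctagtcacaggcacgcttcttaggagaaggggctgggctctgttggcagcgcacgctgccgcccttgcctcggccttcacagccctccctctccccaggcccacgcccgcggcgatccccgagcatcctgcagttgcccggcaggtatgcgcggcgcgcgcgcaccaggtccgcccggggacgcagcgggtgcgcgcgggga
Elavl3: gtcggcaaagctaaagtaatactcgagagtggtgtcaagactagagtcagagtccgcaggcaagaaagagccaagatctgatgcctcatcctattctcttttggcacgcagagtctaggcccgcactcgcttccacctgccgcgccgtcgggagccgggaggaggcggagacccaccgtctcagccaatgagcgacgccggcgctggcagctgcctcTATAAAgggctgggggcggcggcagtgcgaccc

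Both receptor genes were lower in each class. Ret, the receptor for glial cell line-derived neurotrophic factor ligands on which enteric neuron precursors depend, read 4.15, 4.12 and 4.29 in ICC-DMP and 5.40, 5.86 and 5.70 in ICC-MY, against 8.74 and 9.29 in tissue. The 3 groups were fully apart, with ICC-DMP 28.3-fold (adjusted p = 6.53e-06) and ICC-MY 10.3-fold (adjusted p = 2.61e-05) lower than tissue. Chrna3, the nicotinic receptor subunit of ganglionic transmission, read 3.32 to 3.72 in ICC-DMP and 3.38 to 3.90 in ICC-MY, against 5.49 and 6.53 in tissue (-2.45 ± 0.27, adjusted p = 0.000593).

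**Figure D2:**
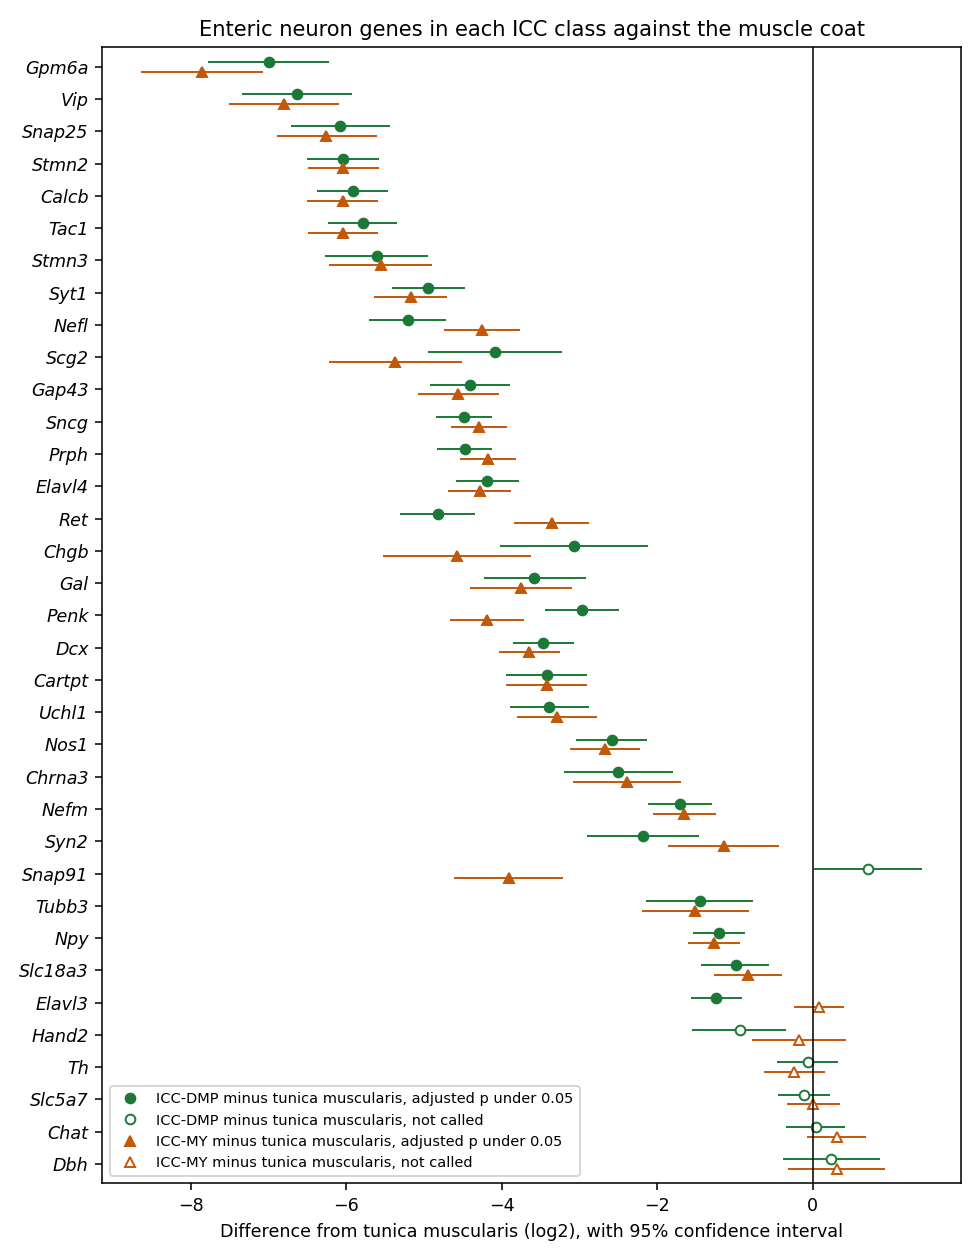
Log2 difference from tunica muscularis (horizontal axis) with its 95% confidence interval for each of the 35 genes, ICC-DMP above ICC-MY, ordered by the ICC mean; filled symbols were called at an adjusted p under 0.05 and open ones were not. Snap91 in ICC-DMP (0.72) and Elavl3 in ICC-MY (0.08) lie far from the other class, and Hand2, Th, Slc5a7, Chat and Dbh are open in both classes.

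A gene was described as kept by an ICC class where it was not called lower than tissue there and stood at or above percentile 50 on every array of that class. By that rule ICC-DMP kept Snap91, Hand2 and Dbh, and ICC-MY kept Hand2 and Elavl3. Hand2 would leave the ICC-DMP group under any of the 5 settings above that called it lower there. In 30 of 35 genes the ICC-DMP arrays all lay below the tissue arrays (23.1% of all genes), and in 1, Snap91, all lay above them (15.5% of all genes). For ICC-MY these counts were 30 (20.7% of all genes) and 1, Chat (13.4% of all genes), whose difference of 0.31 was not called. Dbh is the weakest of the kept genes, since its percentiles in ICC-DMP were 50.5 to 56.4 and its other probe sets read lower. Nos1, Penk and Chgb in ICC-DMP, and Nos1, Syn2 and Ret in ICC-MY, also stood above percentile 50 on every array but were called lower than tissue.

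The direct comparison of the classes asks which neuron transcripts differ between ICC of the deep muscular and the myenteric plexus. For ICC-DMP minus ICC-MY, 3 genes were called higher (5.36% of all genes) and 3 lower (3.3% of all genes), and the median over the 35 was 0.06. The higher genes were Snap91, Chgb and Penk. Snap91 was 24.6-fold higher (log2 difference 4.62, 95% interval 4.0 to 5.25, adjusted p = 4.17e-05), Chgb 2.84-fold (1.51, 0.66 to 2.36, adjusted p = 0.0421) and Penk 2.34-fold (1.23, 0.80 to 1.65, adjusted p = 0.00392). The lower genes were Ret at -1.46 (-1.90 to -1.03, adjusted p = 0.00168), Elavl3 at -1.32 (-1.61 to -1.03, adjusted p = 0.000343) and Nefl at -0.96 (-1.40 to -0.51, adjusted p = 0.0173). All 3 Elavl3 probe sets were called lower in ICC-DMP, whereas the second probe sets of Snap91, Ret and Nefl were not called.

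Nefl read 2.67, 2.90 and 2.77 in ICC-DMP and 3.51, 3.56 and 4.13 in ICC-MY, with percentiles of 6.5 to 35.5, so this difference lies among low values. The Nefl call was lost when any 1 ICC-DMP array was left out (adjusted p 0.055 to 0.0861), and the Chgb call when any 1 of the 6 ICC arrays was (adjusted p 0.0636 to 0.155). A further 4 genes missed the threshold but passed it with the replicate number as a block. These were Scg2 (1.28, adjusted p = 0.0553, and 0.0161 with the block), Gpm6a (0.86, 0.157 and 0.018), Syn2 (-1.04, 0.0612 and 0.00187) and Hand2 (-0.77, 0.0986 and 0.0231). With them, 5 genes were called higher and 5 lower. For this comparison, leaving out either tissue array gives the same fit as both ICC classes alone, so it is no separate setting. Without any 1 ICC-DMP array 2 were called higher and 2 lower, and without any 1 ICC-MY array 2 higher and 3 lower. The other 25 genes differed by -0.30 to 0.25 between the classes, with confidence limits from -0.74 to 0.79 and adjusted p-values of 0.308 or more. Without regard to the test, the ICC-DMP arrays all lay above the ICC-MY arrays for 6 genes (13.9% of all genes) and below them for 7 (11.7% of all genes).

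Smooth muscle transcripts moved with this comparison: 4 of 6 markers were called higher in ICC-DMP than in ICC-MY (5.36% of all genes). Their log2 summed level was 13.94 to 14.30 in ICC-DMP and 11.64 to 12.86 in ICC-MY, against 14.04 to 15.12 in tissue. Of 7 glial and Schwann cell markers 2 were called higher in ICC-DMP (5.36% of all genes). The summed level of the 7 was 7.79 to 8.0 in ICC-DMP and 7.41 to 7.68 in ICC-MY, against 9.58 to 10.27 in tissue. The part of either cell type in the neuron gene differences was not tested. Vip, Tac1, Stmn2 and Snap25 differed between the classes by -0.01 to 0.25 and were not called.

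**Figure D3:**
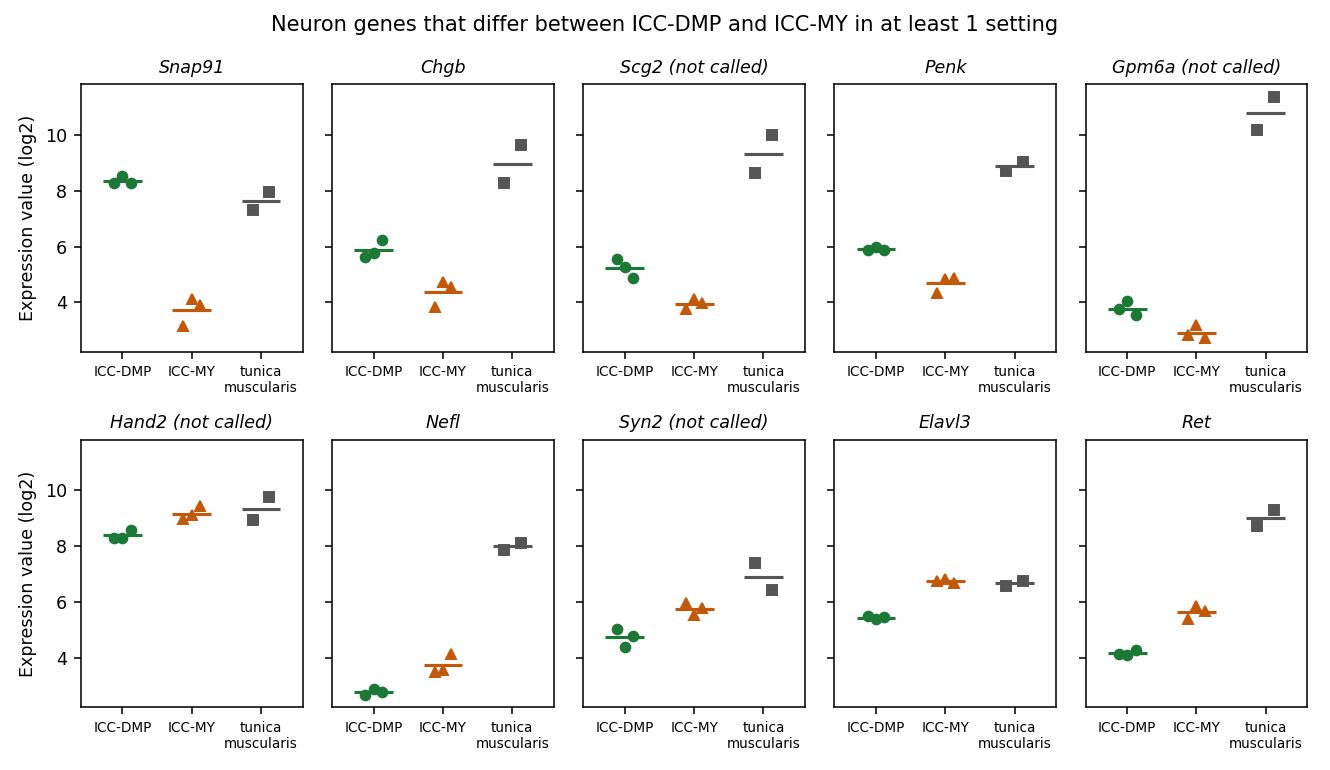
Log2 expression value (vertical axis) on each array for the 10 neuron genes called between the ICC classes as designed or in at least 1 alternative setting; points are arrays, ordered by replicate, and bars are group means. Snap91 in ICC-DMP (8.26 to 8.51) and Elavl3 in ICC-MY (6.67 to 6.84) sit level with or above the tunica muscularis arrays, while Chgb, Scg2, Penk, Gpm6a, Nefl and Ret sit below them in both classes.

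A wider list of 99 neuron genes, written by role, was counted beside the 35; 90 were measured. In the ICC mean 49 of the 90 were lower (9.32% of all genes), 1 was higher (3.69%) and 40 were not called, with a median difference of -0.68. The counts were 46 lower (7.32% of all genes) and 2 higher (3.72%) in ICC-DMP, and 39 lower (9.78%) and 4 higher (4.05%) in ICC-MY. The called genes with the greatest differences in each role included the peptide genes Grp (-4.85 ± 0.19) and Nmu (-3.07 ± 0.13), the granule genes Scg3 (-3.80 ± 0.17) and Resp18 (-3.69 ± 0.15), and the axonal genes Crmp1 (-2.82 ± 0.13) and Stmn4 (-2.51 ± 0.28). The RNA-binding genes Rbfox1 (-3.13 ± 0.16) and Celf4 (-1.98 ± 0.16), the sodium channel gene Scn9a (-4.21 ± 0.14), the nicotinic subunit gene Chrna7 (-4.08 ± 0.21) and the vesicle traffic gene Rab3c (-4.25 ± 0.17) were lower as well. Adjusted p-values of these 11 genes were 0.00065 or less.

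**Figure D4:**
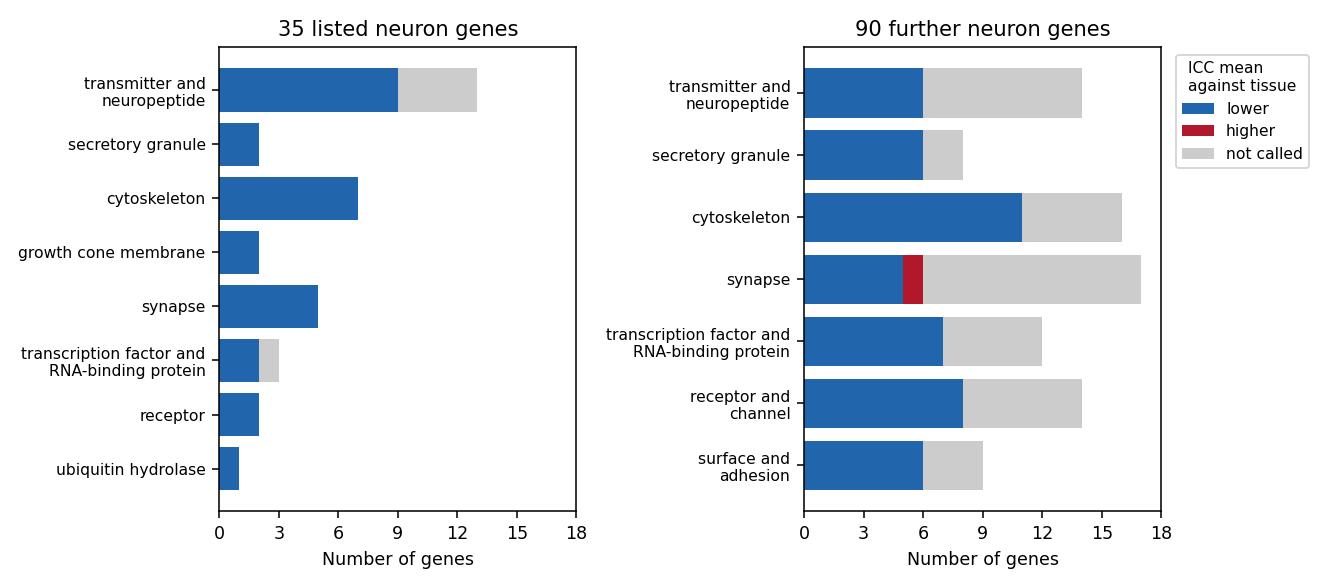
Number of genes (horizontal axis) in each role called lower, higher or not called in the mean of ICC-DMP and ICC-MY against tunica muscularis, for the 35 listed genes (left) and the 90 further neuron genes (right). Every role of the 35 outside the transmitter and transcription factor groups is called lower throughout, and Syt4 is the 1 higher gene on the right.

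Between the classes 11 of the 90 were lower (3.3% of all genes) and 8 higher (5.36% of all genes) in ICC-DMP; 7, 6 and 7 were lower without ICC-DMP replicate 1, 2 and 3. Rims1, a scaffold of the presynaptic active zone, read 8.69, 8.72 and 8.98 in ICC-DMP and 5.21, 5.48 and 5.49 in ICC-MY, against 9.07 and 10.11 in tissue. It was 10.6-fold higher in ICC-DMP than in ICC-MY (adjusted p = 0.000106). Against tissue it was not called in ICC-DMP (-0.79, adjusted p = 0.138), but was called lower with the replicate block (-0.86, 0.0391), without tissue replicate 1 (-1.31, 0.0083), with quantile normalization (-0.90, 0.00446) and with all probe sets averaged (-1.03, 0.0104). Cntn1, an axonal adhesion protein, and the Notch ligand gene Dner were both called lower than tissue in the ICC mean. Between the classes, Cntn1 was 9.4-fold higher in ICC-DMP than in ICC-MY (3.23 ± 0.34, adjusted p = 0.000543), and Dner 2.73-fold (1.45 ± 0.30, adjusted p = 0.02). Syt4, a synaptotagmin, went the other way: it read 6.16, 6.61 and 5.28 in ICC-DMP and 9.37, 10.09 and 9.21 in ICC-MY, against 5.93 and 6.58 in tissue. ICC-MY was 9.83-fold higher than tissue (adjusted p = 0.00113), and the Syt4 call of the ICC mean was lost without either tissue array (1.20, adjusted p = 0.211, and 1.85, adjusted p = 0.0612) or without ICC-DMP replicate 1 or 2 or ICC-MY replicate 2 (adjusted p 0.05 to 0.0777).

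For Ret, the co-receptor and a parallel receptor system were read alongside, named after their values were seen. Gfra1, the co-receptor that presents glial cell line-derived neurotrophic factor to Ret, read 8.03, 7.87 and 7.62 in ICC-DMP and 5.56, 6.10 and 6.22 in ICC-MY, against 7.23 and 7.54 in tissue. Its classes differed by 1.89 ± 0.21 (adjusted p = 0.000755), opposite in direction to Ret. Ednrb, the endothelin receptor of enteric precursors, read 8.22, 8.32 and 7.91 in ICC-DMP and 9.82, 10.33 and 9.86 in ICC-MY, against 8.83 and 9.18 in tissue. It was lower than tissue in ICC-DMP (-0.86 ± 0.22, adjusted p = 0.0426), higher in ICC-MY (1.0 ± 0.22, adjusted p = 0.0183) and differed between the classes by -1.86 ± 0.20 (adjusted p = 0.000585). The ICC-DMP call was lost without any 1 ICC-DMP array, either tissue array or ICC-MY replicate 3 (adjusted p 0.0612 to 0.19), and the ICC-MY call without tissue replicate 1 (0.83, adjusted p = 0.102).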

How the data were processed

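Per the labels' protocols, about 50 ng of total RNA per sample was amplified in 2 rounds and labelled with biotin. The values the authors deposited are on a log2 scale, with 1 value for each probe set on each array; per the submitters' processing notes RMA and limma were used, with no version stated. The sources used here do not say whether all arrays were normalized together. No detection call was used. Of 45101 probe sets, 34945 named 1 gene and 64 were controls, left out. Using limma 3.58.1 under R 4.3.3 (lmFit, contrasts.fit and eBayes), the 3 groups were fitted together on all 8 arrays, which left 5 residual degrees of freedom, and 2-sided p-values were adjusted by Benjamini-Hochberg over 18193 genes. Errors after differences are SE; those after group means are SD. The fit was checked on simulated data. Precision is limited by the number of arrays, chiefly the 2 of tissue. Samples are titled biological replicates, with no word on separate animals, so p-values measure the spread between samples.

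All 35 members are named. Of the wider list, the 2 called genes with the greatest absolute difference per role and direction are named, plus Gfra1 and Ednrb. Members and lists were chosen with earlier results of these data known. Samples with the same replicate number deviated together from their group means in every pair (correlations 0.29, 0.50 and 0.39 between the ICC classes, 0.16 and 0.32 between ICC-DMP and tissue, 0.58 and 0.61 between ICC-MY and tissue). The 2 tissue arrays deviate as mirror images, so the correlations with tissue are not independent. ICC-MY replicate 1 and tissue replicate 1 are also the narrow-range arrays. A different-numbered pair, ICC-MY replicate 3 with tissue replicate 2, reached 0.17. The labels do not say what a number marks. The main fit did not use the numbers. As an alternative, they were taken as pairs in a fit with the number as a block. The other alternatives were the mean of all probe sets, quantile normalization, median centring, removal of dim genes, array weights, fits of only the groups compared, and leaving out arrays.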

Additional observations from a re-analysis of the deposited data

Results flagged for a closer look

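For 12 of the named genes the difference from tissue was not the same in both ICC classes: the direct test of ICC-DMP against ICC-MY was called in limma. Of the 35 neuron genes these were Snap91 (log2 difference 4.62), Chgb (1.51), Penk (1.23), Nefl (-0.96), Elavl3 (-1.32) and Ret (-1.46). Of the wider list they were Rims1 (3.40), Cntn1 (3.23), Gfra1 (1.89), Dner (1.45), Ednrb (-1.86) and Syt4 (-3.54). The Dner call was lost without ICC-DMP replicate 1 (adjusted p = 0.0936), ICC-DMP replicate 2 (0.0886) or ICC-MY replicate 2 (0.062), and the Chgb and Nefl calls with the arrays named above. No group had enough arrays for a check of single outlying arrays.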

How the results depend on the processing

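The 3 counts of neuron genes lower than tissue stayed between 27 and 30 when 1 array at a time was left out, except that removing dim genes left 15 of the 35 to test, of which 12 were lower in each comparison with tissue (wider list: 13 in the ICC mean, 12 in ICC-DMP, 13 in ICC-MY and 5 in ICC-DMP minus ICC-MY). Leaving out 1 array at a time, the wider list gave 37 to 48 lower in the ICC mean, 35 to 49 in ICC-DMP, 37 to 43 in ICC-MY and 6 to 10 between the classes. The removal of dim genes went by a gene's mean over all arrays, tissue included, so a gene could stay through its tissue level. Scg2 stayed, at percentiles 27.8 to 35.7 in ICC-MY against 90.2 and 93.9 in tissue. The median of the 15 was -3.07 in ICC-DMP. The counts and median without dim genes are therefore shaped by the filter and do not test whether the differences depend on dim genes. With 1 array left out, the median over the 35 genes ran from -3.75 to -3.42 in the ICC mean. It ran from -3.66 to -3.27 in ICC-DMP and from -4.17 to -3.63 in ICC-MY. Averaging all probe sets of a gene gave -2.17, -2.51 and -1.99 for the ICC mean, ICC-DMP and ICC-MY; median centring, which moved the median of all genes from -0.02 to 0.21 in the ICC mean, gave -3.35, -3.20 and -3.51; and leaving out both narrow-range arrays gave -3.78, -3.66 and -3.93.

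Between the classes, 5 genes were lower and 5 higher with array weights, the replicate block or a fit of both ICC classes alone. Quantile normalization gave 5 higher, and leaving out 1 ICC array gave 2 higher and 2 or 3 lower. The replicate block for the pairing changed the calls of Hand2, Scg2, Gpm6a, Syn2 and Rims1 given above and no other call among the differences recomputed with it.

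Over the settings, calls were lost in 16 cases among the 50 genes recomputed in the ICC mean, 16 among 37 in ICC-DMP, 20 among 37 in ICC-MY and 12 among 16 between the classes, and gained in 3, 10, 0 and 32. The last of these counts holds the same gains more than once, because leaving out a tissue array repeats the fit of both ICC classes alone. Reversed signs occurred only among differences that were not called, and their cause was not tested. In the ICC mean, Slc5a7 was 0.18 with centring and Dbh -0.20 with all probe sets; Th was 0.02 (quantile), 0.08 (centring), 0.03 (no narrow-range arrays) and -0.34 to 0.04 with 1 array left out. In ICC-DMP, Chat was -0.01 with array weights, and -0.09 to 0.16 with 1 array left out; Slc5a7 was 0.11 with centring, Dbh -0.24 with all probe sets, and Th 0.13 (quantile), 0.16 (centring), 0.12 (no narrow-range arrays), and -0.25 to 0.12 with 1 array left out. In ICC-MY, Slc5a7 was -0.01 with the replicate block, and -0.07 to 0.07 with 1 array left out; Dbh was -0.17 with all probe sets and Th 0.00 with centring. Hand2 there was 0.04 with all probe sets, 0.06 with centring and -0.58 to 0.24 with 1 array left out, and Elavl3 was -0.01 without the narrow-range arrays and -0.01 to 0.17 with 1 array left out.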
